A study of Mus musculus with 6 samples.

Results

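The Schlafen genes were examined in N18-Fms cells, a murine prostate cancer clone, before and after stimulation with the cytokine CSF-1. Members were chosen by gene name, as every array probe that the files assign to Slfn1, Slfn2, Slfn3, Slfn4, Slfn5, Slfn8 or Slfn9. These 7 genes, of 36163 gene names on the array, were covered by 9 probes. A gene was tested where some group had both of its arrays well above background, which held for 3 of the 7, namely Slfn2, Slfn8 and Slfn9.

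N18-Fms (N18-CFMS in the labels) is 1 clone of C2H cells, which come from the TRAMP mouse model of prostate cancer. It carries a luciferase reporter with neomycin resistance and a retrovirus for the murine CSF-1 receptor, c-fms, and the infected cells were selected for the receptor on their surface by 2 rounds of sorting. All cells were grown with fetal bovine serum and dihydrotestosterone, and no cells without the receptor are among the arrays. The groups were unstimulated cells (Control) and cells given recombinant murine CSF-1 at 100 ng/ml for 24 h or for 48 h, with 2 single-color Agilent arrays in each of the 3 groups. Per the labels, 2 independent experiments gave the RNA, and the methods of the study give 12 h and 24 h in place of the labelled times, which are kept here.

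Schlafen proteins are a mammalian family best known from lymphocytes and macrophages, where type I interferon raises their mRNA. In the mouse, Slfn1 and Slfn2 are short proteins, Slfn3 and Slfn4 are intermediate, and Slfn5, Slfn8 and Slfn9 are long and carry a helicase-like part. Slfn2 keeps resting T cells quiescent and binds tRNA, and mouse Slfn8 and Slfn9 are relatives of human SLFN11, which acts on tRNA and on stalled replication forks.

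The members lie side by side on chromosome 11. The files place their probes on mm9, from the Slfn5 probe at chr11:82774907-82774966 to the Slfn3 probe at chr11:83028431-83028490, a stretch of 254 kb, and the probes of Slfn8 and Slfn9 are on the minus strand. Whether a probe lies in a coding exon or a UTR was not analysed here, since the probe coordinates and the reference used here are on different builds.

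The sequences before the annotated starts of Slfn2, Slfn8, Slfn9 and Slfn5 are shown first. They come from RefSeq on GRCm38.p6, are written 5′ to 3′ in the direction of the gene, and end at the last base before the start. Capitals mark matches of an interferon regulatory factor (IRF) motif, AANNGAAA, searched on both strands, so that a match on the opposite strand reads as its reverse complement. Of these genes Slfn2, Slfn8 and Slfn9 were measured above background, and Slfn5 was not.

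Slfn2, chr11:83064862-83065111, plus strand: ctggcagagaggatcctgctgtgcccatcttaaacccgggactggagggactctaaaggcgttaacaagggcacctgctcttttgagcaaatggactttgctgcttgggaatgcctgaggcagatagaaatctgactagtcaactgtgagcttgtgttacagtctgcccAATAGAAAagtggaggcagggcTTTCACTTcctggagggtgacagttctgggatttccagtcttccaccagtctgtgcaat
Slfn8, chr11:83020811-83021060, minus strand: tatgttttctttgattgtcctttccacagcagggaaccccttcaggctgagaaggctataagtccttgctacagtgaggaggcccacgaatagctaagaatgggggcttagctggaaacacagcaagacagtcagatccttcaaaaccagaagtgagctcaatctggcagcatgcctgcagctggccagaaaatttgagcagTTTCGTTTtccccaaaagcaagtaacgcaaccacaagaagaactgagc
Slfn9, chr11:82991831-82992080, minus strand: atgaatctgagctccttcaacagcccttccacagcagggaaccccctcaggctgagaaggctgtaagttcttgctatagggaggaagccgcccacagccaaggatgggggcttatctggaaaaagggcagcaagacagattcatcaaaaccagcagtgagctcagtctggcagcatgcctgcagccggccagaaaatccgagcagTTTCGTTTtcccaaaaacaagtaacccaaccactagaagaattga
Slfn5, chr11:82951852-82952101, plus strand: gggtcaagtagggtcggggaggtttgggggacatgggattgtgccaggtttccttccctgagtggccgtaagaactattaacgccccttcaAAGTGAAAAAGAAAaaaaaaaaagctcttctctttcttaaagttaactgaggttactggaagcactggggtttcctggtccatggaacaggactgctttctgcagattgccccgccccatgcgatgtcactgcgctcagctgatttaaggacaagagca

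All 7 members had at least 1 match in the window of 300 bases around the start, whereas 24.2% of 27025 genes with a RefSeq promoter had one. Slfn4 had 3 matches, Slfn2 and Slfn5 had 2 each, and the other members had 1. Matches were thus present both in members measured above background and in members that were not. Slfn14, a Schlafen gene that is not among the members, had 0. Whether the matches bear on the changes after CSF-1 was not tested. In Slfn2 the matches lay 81 to 74 and 59 to 52 bases before the start. In Slfn5 they overlapped, at 159 to 152 and 153 to 146 bases before the start, and the second led into a run of A. The Slfn8 and Slfn9 windows shared the letters TTTCGTTT, 48 to 41 bases before the start in Slfn8 and 45 to 38 in Slfn9. Slfn8 has a second annotated start farther downstream, from which the same match lies 136 to 129 bases away. In a global alignment these windows were 80.7% identical, against 42% to 50% for every other pair of members. A STAT motif, TTCNNNGAA, read on both strands, had 0 matches in the 7 members and was present in 8.47% of all promoters.

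**Figure D1:**
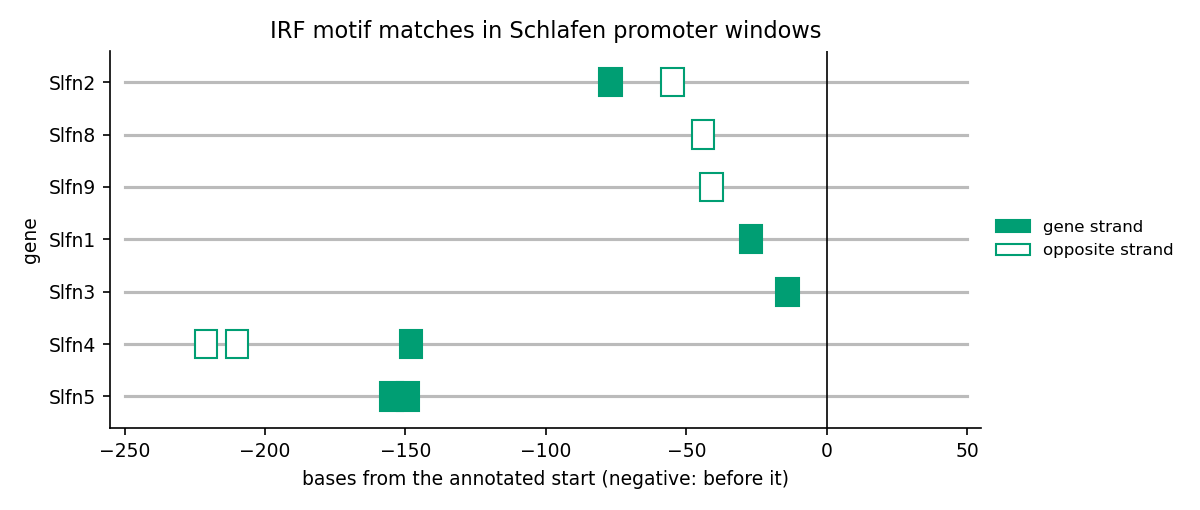
Position of each IRF motif match (boxes) in the promoter windows of the 7 members, in bases from the annotated start. For Slfn8 the upstream of 2 annotated starts is drawn. Slfn2, Slfn8 and Slfn9 have theirs within 81 bases before the start drawn, as do Slfn1 and Slfn3, and those of Slfn4 and Slfn5 lie farther away.

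The values below are spot signals as deposited, which are background-subtracted fluorescence intensities in arbitrary units, and levels, which are the log2 of a signal minus the log2 of the array's 75th percentile. Levels of different probes are not compared with each other. The 75th percentile lay between 550 and 611 and 58.7% to 72% of spots were well above background. Replicate arrays had a Pearson correlation of 0.982 to 0.984 across probes, which are not independent. The first 24 h array had a slide of its own, apart from the other 5, and values without it are given where it mattered.

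Slfn2 had the largest fitted change among the members tested, but the increase of Slfn8 is known only as a lower limit. The Slfn2 probe gave signals of 43.1 and 52 in unstimulated cells, 569 and 790 at 24 h, and 1150 and 1890 at 48 h. It was well above background on all 6 arrays. The 3 groups did not overlap and lay in the order of the time of stimulation. In limma, with Benjamini-Hochberg adjustment over 24648 genes, Slfn2 rose by 3.81 (log2, SE 0.24, n = 2 arrays per group, adjusted p = 0.0024) at 24 h, a 14.1-fold increase. At 48 h the difference from Control was 4.97 (SE 0.24, adjusted p = 0.00127), or 31.2-fold. After normexp background correction, which adds 50 to every signal, the differences were 2.58 and 3.68, both called. As large an increase or larger was fitted for 108 of the genes tested at 24 h and for 78 at 48 h, Slfn2 included.

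Slfn8 had 2 probes. Probe A, the brighter one, which stood for the gene, gave 11.4 and 27.1 in unstimulated cells, where it was not well above background, 146 and 196 at 24 h, and 230 and 424 at 48 h. All 4 stimulated arrays were above both unstimulated ones. Since unstimulated cells gave only an upper bound, the increase is a lower limit, in which each Control array counts at the higher of its own signal and its lowest signal well above background. Slfn8 was at least 7.16-fold higher at 24 h (adjusted p = 0.0118) and at least 13.4-fold higher at 48 h (adjusted p = 0.00645) on the deposited signals. These limits hold for that background correction only, since normexp gave fitted log2 changes of 1.34 and 2.0, both called. They also rest on the floor chosen. On the second Control array a spot at 23.5 passed the flag, while Slfn8 probe A at 27.1 did not. The Control level may therefore lie above the value used, and these and the later lower limits are approximate. At 24 h the call rested on both arrays: without the first array the adjusted p was 0.0515 and without the second it was 0.0622, while the fitted log2 changes were 3.44 and 3.08.

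Probe B of Slfn8, at chr11:82830985-82831044, gave 9.19 and 5.87 in unstimulated cells, 45.6 and 39.5 at 24 h, and 37.7 and 80.6 at 48 h. It was well above background on 3 arrays, namely the first at 24 h and both at 48 h. In a fit with every probe on a row of its own, the increase was at least 1.92-fold at 24 h (adjusted p = 0.0211) and at least 2.53-fold at 48 h (adjusted p = 0.0163). Both probes of Slfn8 thus changed in the same direction, with a lower limit under 2-fold for probe B at 24 h.

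Slfn9, the close relative of Slfn8, was above background in unstimulated cells and changed less. Its probe A, which stood for the gene, gave 456 and 557 in unstimulated cells, 748 and 707 at 24 h, and 1010 and 1110 at 48 h. Probe B, at chr11:82793914-82793973, gave 169 and 203, then 354 and 396, then 518 and 697. For both probes the 3 groups did not overlap. By probe A the difference was 0.52 at 24 h (log2, SE 0.12, 1.43-fold, adjusted p = 0.0456), under the 2-fold asked for a call, and 1.07 at 48 h (SE 0.12, 2.11-fold, adjusted p = 0.00739). The 48 h value was near that limit and came to 0.97 after median centring and after normexp background correction, where it was not called. In the fit with every probe on a row of its own, probe B differed by 1.0 at 24 h (2.01-fold, adjusted p = 0.0166). At 48 h it differed by 1.71 (3.26-fold, adjusted p = 0.00466). In that fit probe A had an adjusted p of 0.0518 at 24 h. Probe B thus met the rule for a call at 24 h, while probe A, which stood for the gene, did not.

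**Figure D2:**
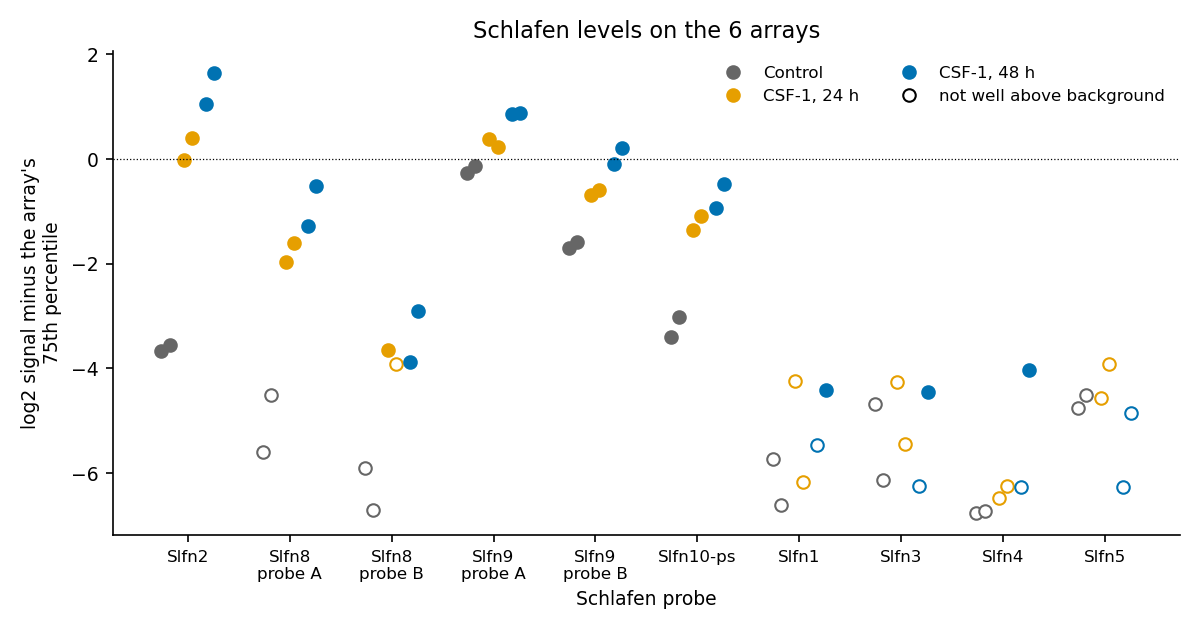
Level of each Schlafen probe on each array (log2 signal minus the array's 75th percentile), colored by group, with open circles where the spot was not well above background. Slfn2, Slfn8, Slfn9 and the pseudogene Slfn10-ps lie higher on every stimulated array than on the Control arrays, and Slfn1, Slfn3, Slfn4 and Slfn5 are mostly open.

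The remaining 4 members stayed near background. Slfn1, like Slfn2 a short family member, gave 10.3 and 6.26 in unstimulated cells, 30.2 and 8.34 at 24 h, and 12.5 and 28.1 at 48 h. Slfn3 gave 21.5 and 8.69, then 29.9 and 13.7, then 7.26 and 27.5. Slfn4, known from myeloid cells, gave 5.08 and 5.74, then 6.42 and 7.91, then 7.17 and 36.9. Each of these 3 genes was well above background only on the second 48 h array, on which a spot with a signal as low as 17.8 passed that flag, the lowest of the 6 arrays. Slfn5 gave 20.4 and 27, then 24.3 and 39.3, then 7.23 and 20.8, and was not well above background on any array. These 4 genes were not tested, and no change was detectable for them at this sensitivity. Levels of Slfn1 at 48 h and of Slfn4 at both times were above Control on both stimulated arrays, all but 1 array for each of them not well above background. The levels of Slfn3 overlapped between Control and stimulated arrays at both times, and those of Slfn5, never well above background, overlapped at 24 h and lay below Control at 48 h.

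At 24 h, 2 of the 3 members tested were called higher (adjusted p under 0.05 and at least 2-fold), where 4.55% of all genes tested were. At 48 h, all 3 members tested were called higher, against 3.95% of all genes tested. The median change of all genes tested was 0.04 at 24 h and -0.04 at 48 h on the log2 scale. All stimulated arrays lay above both Control arrays for each of the 3 tested members, as they did for 31.3% of all genes tested at 24 h and 23.8% at 48 h. The 4 members that did not pass the filter are not part of these counts, and Slfn8 passed it through its stimulated arrays alone. Both comparisons share the Control arrays, so they are not independent.

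**Figure D3:**
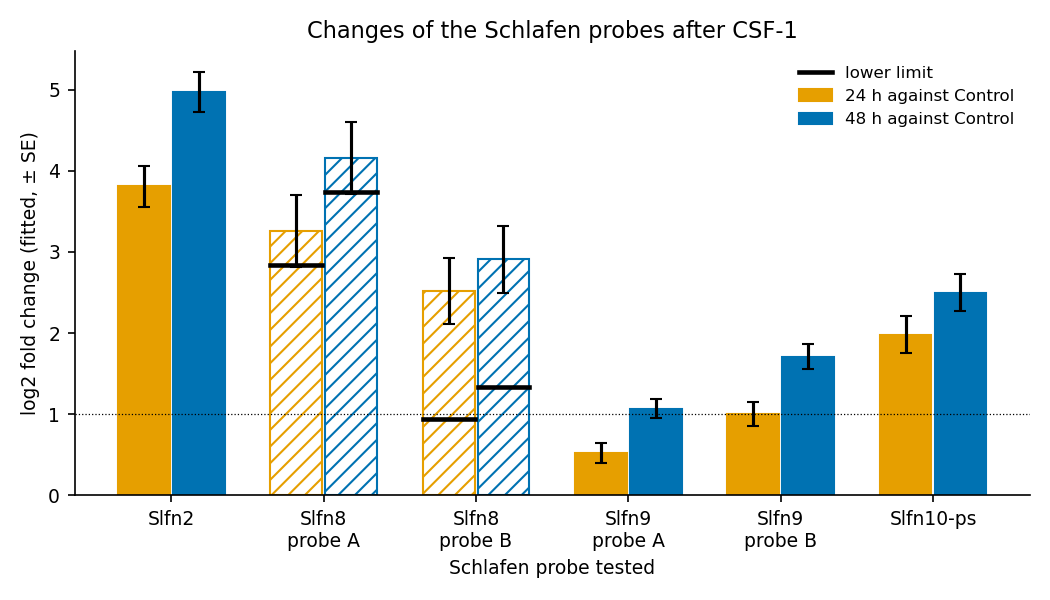
Fitted log2 fold changes against Control (bars, with SE as error bars) at 24 h and 48 h for every Schlafen probe tested, 2 arrays per group, with a dotted line at 2-fold. Hatched bars are probes not well above background in Control, with the lower limit as a thick line; bars run from 0.52 for Slfn9 probe A at 24 h to 4.97 for Slfn2 at 48 h.

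Between 24 h and 48 h all 3 tested members had higher fitted values, and 0 of 3 were called in limma, as were 0% of all genes tested. Slfn2 differed by 1.15 (log2, 95% confidence interval 0.54 to 1.76, adjusted p = 0.172). Slfn9 differed by 0.56 (0.26 to 0.85, adjusted p = 0.171) and Slfn8 by 0.90 (-0.19 to 1.99, adjusted p = 0.439). At an unadjusted p under 0.05 with any fold, limma called 2 of the 3, both higher, and 13.6% of all genes tested, with 4.38% of all genes higher. The methods' t-test called 1 of the 3 higher, as it did 3.28% of all genes. These data therefore do not establish whether the levels went on rising after 24 h.

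Other Schlafen genes on the array were read in the same way. Slfn10-ps, a pseudogene inside the cluster, gave 52.1 and 75.6 in unstimulated cells, 223 and 280 at 24 h, and 288 and 434 at 48 h. It was above background on all 6 arrays. It rose by 1.98 (log2, SE 0.22, 3.96-fold, adjusted p = 0.00827) at 24 h and by 2.50 (5.66-fold, adjusted p = 0.00435) at 48 h. The gene listed as Slfn14-ps was above background on 2 arrays and Slfnl1, a Schlafen-like gene on chromosome 4, on 0, and neither was tested.

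The probes of Slfn8 and Slfn9 share sequence with each other and with other places in the genome. Probe A of Slfn8 and both probes of Slfn9 aligned, over at least 30 bases at 80% identity or more, with RefSeq promoter windows of 7 (Slfn8), 7 (Slfn9 probe A) and 8 (Slfn9 probe B) other genes. The other probes of Schlafen genes, those of Slfn2, Slfn10-ps and probe B of Slfn8 among them, aligned with 0. Of all 55681 probes on the array, 4.88% aligned with at least 1 such window and 1.15% with 7 or more. The shared stretch is given as 30 bases of Slfn8 probe A, of Slfn9 probe B and of a probe listed for Psme2, a proteasome activator subunit, with capitals for bases that differ from the Slfn8 probe.

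Slfn8 probe A: gaaggacataaataattcccttaaagaaat
Slfn9 probe B: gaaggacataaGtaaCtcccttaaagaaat
Psme2 probe: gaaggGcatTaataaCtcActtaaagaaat

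Array probes of 4 other genes shared such a stretch with these Schlafen probes, and 2 of them could be tested. The probe of Mpp3, a membrane scaffold protein, aligned with Slfn8 probe A over 34 bases at 85.3% identity, and its signals were 556 and 491 in unstimulated cells, 478 and 584 at 24 h, and 492 and 530 at 48 h. Its log2 differences were 0.00 (adjusted p = 0.99) and -0.03 (adjusted p = 0.934). The probe listed as ENSMUST00000108303 aligned with Slfn9 probe B over 31 bases at 87.1% identity and differed by 1.10 at 24 h (adjusted p = 0.0372) and by 0.33 at 48 h (adjusted p = 0.384). The Psme2 probe shown above gave 19.7 and 17.2, then 36.1 and 25, then 22.6 and 33.8, and was above background on 2 arrays. The other 2 probes of Psme2, which share no such stretch, were above background on all 6 arrays. They differed by 0.77 and 0.70 at 24 h (adjusted p = 0.0183 and 0.0222), under 2-fold, and rose by 1.35 and 1.28 at 48 h (adjusted p = 0.00485 and 0.00516). How much of the Slfn8 and Slfn9 signals came from transcripts of other genes was not tested. Without all probes that aligned with a promoter of another gene, an alternative added after the data were seen, Slfn9 had no probe left, Slfn2 was called at both times, and Slfn8 was represented by probe B, with the lower limits of 1.92-fold and 2.53-fold given above.

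Next, genes beside the cluster were compared with the members. Within 500 kb on either side of the outermost member probes, or between them, lay 39 other genes, of which 26 were tested. At 24 h, 2 were called higher and 2 lower, where 4.55% of all genes tested were higher and 1.62% lower. The median change of the 26 was 0.01. At 48 h, 1 was called higher and 1 lower, where 3.95% of all genes tested were higher and 1.46% lower. The median was then -0.10. Slfn10-ps was the one called higher at both times. The nearest tested genes on the 2 sides, ENSMUST00000150687 at 9.31 kb and the unnamed probe A_55_P2086393 at 76.9 kb, differed by 0.01 and -0.05 at 24 h and by -0.12 and -0.04 at 48 h. A further transcript inside the cluster, NAP096343-001, differed by -0.06 at 24 h and by -0.24 at 48 h and was not called.

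The other called neighbours lay more than 300 kb away in a group of chemokine genes and beyond it. Ccl9, a chemokine that draws myeloid cells, fell by 1.69 at 24 h (log2, SE 0.14, adjusted p = 0.00423) and by 1.52 at 48 h (adjusted p = 0.00496). Ccl6, a related chemokine, was at least 1.77-fold lower at 24 h (adjusted p = 0.0207) and was not called at 48 h. Expi, at the edge of the window, was at least 4.98-fold higher at 24 h (adjusted p = 0.0164) and was not called at 48 h.

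**Figure D4:**
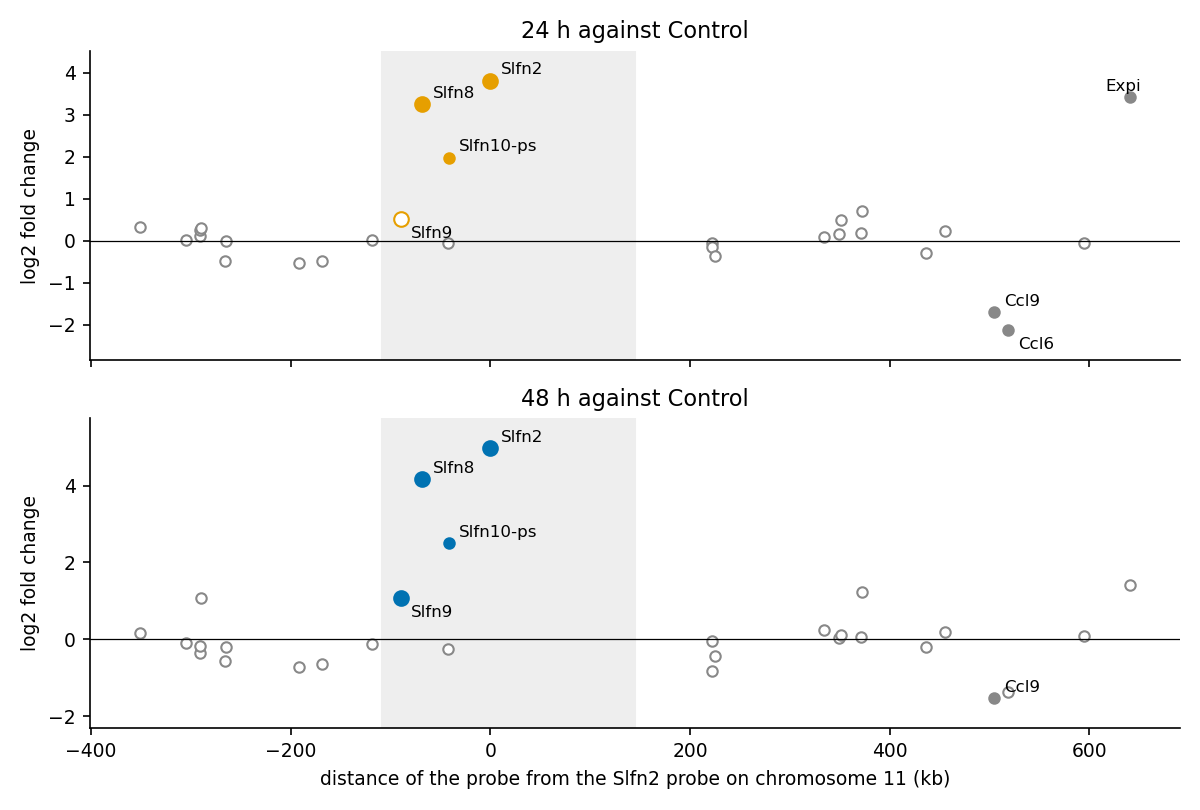
Log2 fold change against Control of each tested gene by the distance of its probe from the Slfn2 probe on chromosome 11, at 24 h (top) and 48 h (bottom), filled where called. The shaded stretch of 254 kb spans the member probes, and the colored Schlafen genes run from 0.52 to 4.97; among the neighbours, Expi lies at 3.42 and 1.42 and Mmp28 at 0.71 and 1.22. Slfn8 and Expi are drawn at fitted values, with Control not well above background.

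Since interferon is known to raise Schlafen mRNA, the genes of the interferon pathway were read beside the members, by role. Type I interferons bind a receptor whose kinases activate STAT and IRF factors, which then switch on target genes and feedback inhibitors. Of the interferon ligands, 10 of the 12 listed were on the array and 6 were tested. In limma 0 were called at either time, where 4.55% and 3.95% of all genes tested were called higher. At an unadjusted p under 0.05, 0 were called by limma or by the methods' t-test. Of all genes, limma then gave 17.1% higher and 14.2% lower at 24 h, and 12.1% and 18.8% at 48 h. With 6 genes tested, 0 calls cannot decide whether the ligands as a group changed. The 6 tested were Ifna1, Ifna2, Ifna5, Ifna11, Ifna12 and Ifnk, with median changes of 0.12 and -0.14. The other listed ligands, Ifnb1, Ifng, Ifna4, Ifne, Ifnl2 and Ifnl3, were absent from the array or did not pass its filters, and were not tested. Whether the Ifna probes tell these related genes apart was not tested either. Of 8 receptors and kinases tested, 1 was called higher at 24 h and 2 at 48 h, beside 4.55% and 3.95% of all genes tested. These were Jak2, a kinase of cytokine receptors (log2 1.10 and 1.24, adjusted p = 0.0121 and 0.00921), and Il10rb, a receptor chain of type III interferon and interleukin-10, which differed by 0.91 at 24 h (adjusted p = 0.019), under 2-fold, and rose by 1.05 at 48 h (adjusted p = 0.0137).

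Of 8 transcription factors tested, 4 were called higher at both 24 h and 48 h, beside 4.55% and 3.95% of all genes tested. Irf7, which amplifies type I interferon responses, had levels of -4.45 and -4.45 in unstimulated cells, -0.92 and -0.65 at 24 h, and 0.25 and 0.67 at 48 h. It rose by 3.67 and 4.91 (adjusted p = 0.00145 and 0.000927). Stat2 rose by 2.77 and 3.54 (adjusted p = 0.00235 and 0.00127). Irf9, which joins the STAT factors at interferon-responsive promoters, rose by 2.73 and 2.79 (adjusted p = 0.00437 and 0.00373). Of 6 feedback inhibitors, 4 were called higher at each time, beside the same shares of all genes. Usp18, which blocks the type I interferon receptor, rose by 6.66 and 8.04 (adjusted p = 0.00292 and 0.00152). Socs3 rose by 3.74 and 2.91 (adjusted p = 0.0029 and 0.00459) and Socs1 by 1.33 and 1.66 (adjusted p = 0.012 and 0.00702), both suppressors of cytokine signaling.

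Of 18 interferon target genes tested, 15 were called higher at 24 h and 16 at 48 h, with 0 lower. Of all genes tested, 4.55% and 3.95% were called higher. The median changes of the target genes were 4.40 and 6.15. With the 2 targets that were not above background in Control, Mx1 and Rsad2, at their lower limits, the medians were 3.35 and 5.21. The largest were Ifit3 (6.14 and 7.52, adjusted p = 0.00145 and 0.000927), Oas1a (5.56 and 7.64, adjusted p = 0.00682 and 0.00283) and Ifit1 (5.73 and 7.39, adjusted p = 0.00181 and 0.00102), which encode antiviral proteins acting on foreign RNA. These lists were set with earlier results on the interferon response in the same arrays known, and they are a description.

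**Figure D5:**
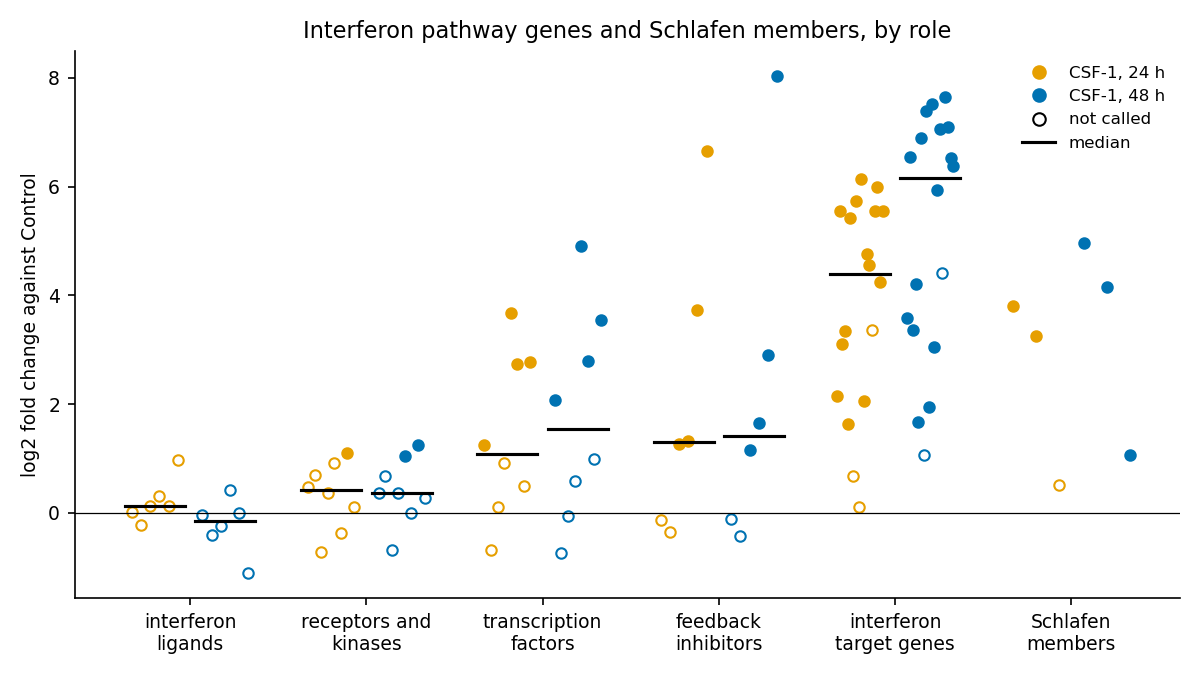
Log2 fold change against Control at 24 h and 48 h of each tested interferon pathway gene by role, with the tested Schlafen members at the right, filled where called and with a line at the median of each pathway group. The ligands have medians of 0.12 and -0.14 and the target genes of 4.40 and 6.15; Slfn8, Mx1 and Rsad2 are among the genes drawn at fitted values although their Control arrays were not well above background.

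Slfn2 and Slfn9 were also set beside the genes with the most similar values over the 6 arrays, by the root mean square distance of levels after subtraction of the Control mean, among 13852 candidates with a RefSeq symbol. For Slfn2 these were Irf7 (distance 0.115 on the log2 scale), Ifi47 (0.129), an interferon-inducible GTPase, and Zbp1 (0.159), a sensor of nucleic acids. No such genes are given for Slfn8, whose Control level is only an upper bound. For Slfn9 they were Itm2c (0.0739), Ptprn (0.0833) and Bok (0.0902). Slfn9 lay 2.95 from Slfn2.

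Slfn2 binds tRNA and shields it from cleavage by the ribonuclease angiogenin, and for that reason genes of tRNA cleavage were read as well. Of 11 tested, 3 were called higher at 24 h, and 2 higher and 1 lower at 48 h. Of all genes tested, 4.55% were called higher at 24 h, and 3.95% higher and 1.46% lower at 48 h. At an unadjusted p under 0.05 with any fold, limma gave 3 higher and 4 lower at each time. Of all genes, 17.1% were then higher and 14.2% lower at 24 h, and 12.1% and 18.8% at 48 h. The 3 called higher are relatives in the angiogenin family, while Ang, the gene of angiogenin itself, was not among those tested. Ang2 rose by 1.48 and 1.06 (adjusted p = 0.00351 and 0.00739) and Ang4 by 1.33 and 1.0 (adjusted p = 0.0107 and 0.0226). Ang3 rose by 1.03 at 24 h (adjusted p = 0.00846) and differed by 0.73 at 48 h (adjusted p = 0.0202), under 2-fold. The gene called lower was Trdmt1, a tRNA methyltransferase, which fell by 1.01 at 48 h (adjusted p = 0.0185). Angiogenin paralogs are similar in sequence, and whether their probes tell them apart was not tested.

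For SLFN11, the human relative of Slfn8 and Slfn9, the genes of replication stress with which it is known to act were listed, among them the RPA subunits and Atr. Of 10 tested, 0 were called in limma at either time. Their median changes were -0.52 and -0.51, beside 0.04 and -0.04 over all genes, and at an unadjusted p under 0.05 with any fold 8 were lower at 24 h and 7 at 48 h, where 14.2% and 18.8% of all genes were. By the methods' t-test 5 and 8 of the 10 were lower, beside 11% and 14.1% of all genes. None of them reached 2-fold.

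Finally, the labelled cell type and cells known for Schlafen mRNA were checked by marker genes. Of 10 epithelial and prostate markers, 5 to 7 were above background on each array. The keratin genes Krt8, Krt5 and Krt14 were above background on all 6 arrays, Epcam on 1, and Cdh1 and Hoxb13 on 0. Krt8, a keratin of luminal epithelium, rose by 1.98 at 48 h (log2, adjusted p = 0.0106).

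Of 9 T cell markers, 5 to 7 were above background on each array, with Cd3e and Cd4 above it on all 6 and Cd3g and Cd2 on 0. Their summed levels were 1810% to 2300% of the 75th percentile in Control, 2040% to 2230% at 24 h and 2100% to 2750% at 48 h. Cd4 and Cd3e made up nearly all of these sums, and the other 7 markers summed to 39.9% to 45.3% in Control, 56.1% to 65.8% at 24 h and 56.3% to 63.1% at 48 h, higher on every stimulated array. In limma 0 of 6 tested were called, with 2 and 3 higher at an unadjusted p under 0.05, where 17.1% and 12.1% of all genes tested were, and 1 and 0 by the methods' t-test, where 11% and 8.13% were. Of 12 macrophage markers on the array, 6 to 9 were above background on each array, with Cd163, Lyz2 and Sfpi1 on 0. Their summed levels were 4020% to 4490% in Control, 3330% to 4060% at 24 h and 2670% to 3590% at 48 h. Most of that sum was 1 bright marker, Itgam, and without it the summed levels were 271% to 282% in Control, 722% to 724% at 24 h and 560% to 561% at 48 h, higher on every stimulated array. Of 7 tested, 1 was called higher at each time, beside 4.55% and 3.95% of all genes tested. It was Mrc1, a mannose receptor, which rose by 4.27 and 3.56 (adjusted p = 0.000845 and 0.000927). Cd14 differed by 0.87 and 0.69 (adjusted p = 0.0101 and 0.0191), under 2-fold. Apart from Itgam, only Mrc1 and Cd14 lay above the 75th percentile on the stimulated arrays, so the sum without Itgam is mostly theirs. At an unadjusted p under 0.05 in limma, 4 of the 7 were higher and 0 lower at 24 h, and 2 were higher and 2 lower at 48 h. Of all genes tested, 17.1% were then higher and 14.2% lower at 24 h, and 12.1% and 18.8% at 48 h. N18-Fms comes from a cultured clone, isolated by limiting dilution, so marker signals above background do not show that T cells or macrophages were present. Whether the bright probes of Cd4, Cd3e and Itgam report those genes in these cells was not tested. In bulk RNA, more cells with a transcript and more of it per cell cannot be told apart.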

How the data were processed

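RNA of N18-Fms cells was labeled with Cy3 and hybridized to 6 single-color Agilent arrays. Per the labels, the authors deposited the output of Agilent Feature Extraction 11.0.1 for each array, of which the background-subtracted signal, a linear intensity not normalized between arrays, was used. A second deposited table, of log2 values for some probes, served as an alternative: 8 of the 9 member probes are in it, the Slfn5 probe is not, and 99.8% of its differences between arrays lie within 0.05 of those of the log2 signal, apart from a constant per array. The probes' centring in that table is not given in the sources used here. The study's methods name a t-test, run here as an alternative.

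Outlier spots were left out, repeated spots were averaged, and each signal was divided by its array's 75th percentile before log2. The brightest probe stood for a gene. Of 36028 usable genes, 24648 had some group with both arrays well above background and were tested by limma 3.58.1 under R 4.3.3, 2-sided (lmFit, then eBayes), with one fit of 6 arrays, 3 residual and 2.39 prior degrees of freedom and Benjamini-Hochberg adjustment. A call needed 2-fold and an adjusted p-value under 0.05. The procedure was tested on simulated data. The p-values measure the spread between 2 arrays a group, and that number limits the precision. An exact permutation test of 2 arrays against 2 cannot reach the threshold, so none was run. Only 1 array was on another slide, so the slide was not fitted as a block.

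Probes were aligned to RefSeq promoters (GRCm38.p6) with blastn 2.17.0 (word size 11, E-value up to 0.01) and promoters to each other with Biopython 1.88. The genes named beyond the members were, for each list, the 3 called genes with the largest mean change at 24 h and 48 h. Also named were every called neighbour of the cluster, the nearest tested gene on each side, and the 3 most similar genes of Slfn2 and Slfn9. Trdmt1, NAP096343-001, Mx1, Rsad2, Mmp28, Slfn14, the interferon ligands, Ang, the markers and the genes sharing probe sequence were chosen after their values were seen. The members and lists were chosen with earlier results of these data known. The alternatives were quantile normalization, median centring, normexp background correction with an offset of 50, the authors' log2 values, no filter or a filter on all 6 arrays, the mean of a gene's probes, a replicate block, an intensity trend, only the 4 arrays compared, leaving out each array, unadjusted p-values, the methods' t-test and, added later, leaving out probes that align with promoters of other genes.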

Additional observations from a re-analysis of the deposited data

How the results depend on the processing

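Of 165 log2 fold changes of Slfn2, Slfn8 and Slfn9 recomputed under the alternatives, 156 kept their direction and their side of the threshold, 9 kept the direction and lost the call, and 0 changed sign. Slfn9 at 48 h came to 0.97 after median centring and to 0.97 after normexp background correction, under 2-fold, and median centring moved the median of all genes to -0.25 at 24 h and -0.14 at 48 h. Normexp also lowered Slfn2 from 3.81 to 2.58 and from 4.97 to 3.68, and Slfn8 from 3.26 to 1.34 and from 4.16 to 2.0, with calls kept. The mean of its probes gave Slfn8 3.54 at 48 h, and probe B alone gave fitted values of 2.52 and 2.91. With all 6 arrays required above background, Slfn8 was not tested and 1 member was called at 24 h. The methods' t-test, with 2 degrees of freedom, called 2 and 3 members unadjusted at 24 h and 48 h, and after Benjamini-Hochberg it called 0 of 24648 genes and 0 members at either time, at unchanged fitted differences of 3.81 and 4.97 for Slfn2, 3.26 and 4.16 for Slfn8, and 1.07 for Slfn9 at 48 h. At an unadjusted p under 0.05 and 2-fold, 1 member, Slfn2, was called higher at 48 h than at 24 h. The samples share only a replicate number: the correlations of the replicate differences were 0.128, 0.0941 and 0.199. With the replicate number as a block, 2 and 3 members were called at 24 h and 48 h, as without it, with 1550 genes in place of 1521 and 1398 in place of 1332. Leaving out each array in turn gave 1 to 2 members called at 24 h, 3 to 3 at 48 h and 0 to 0 between 24 h and 48 h. Slfn2 ranged from 3.61 to 4.02 at 24 h and from 4.67 to 5.26 at 48 h, Slfn8 from 2.71 to 3.81 and from 3.61 to 4.71, and Slfn9 from 0.45 to 0.59 and from 1.0 to 1.14. Slfn8 lost its call at 24 h without either 24 h array, the lone array then being taken to vary like the other groups. Over all genes, the share of calls that were higher depended on the scaling. At 24 h it was 1121 of 1521 calls, 804 of 1279 after quantile normalization and 798 of 1756 after median centring, and at 48 h it was 973 of 1332 and, after median centring, 882 of 1429. Signal near background limits Slfn1, Slfn3, Slfn4, Slfn5 and the Control level of Slfn8.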
